A study of Mus musculus with 13 samples.

Results

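Mature miRNAs of epithelial tissues and skin were followed in the plasma of dystrophic and wt mice. They were the 5 members of the miR-200 family (mmu-miR-200a-3p, mmu-miR-200b-3p, mmu-miR-200c-3p, mmu-miR-141-3p and mmu-miR-429-3p), mmu-miR-203-3p and mmu-miR-205-5p, in all 7 of the 1907 mature miRNAs in the count table. These 7 were chosen by name, with no threshold on a measured value, but earlier results of the same libraries were in view when they were picked. Counts of those past a test below therefore describe the comparisons and are not independent support for them. All 7 had counts in every library and passed the filter on low counts, as did 368 miRNAs in total.

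Small RNA was sequenced from EDTA plasma of 13 male mice, 1 library per mouse, in 4 groups. The Givinostat group (n = 3) were dystrophin-deficient mdx mice, C57BL10ScSn-Dmdmdx/J, dosed by gavage on 5 days a week for 15 weeks with 37.5 mg/kg of Givinostat, an inhibitor of histone deacetylases, in 0.5% methylcellulose. The vehicle group (n = 4) were mdx mice given 0.5% methylcellulose on the same schedule, the naive mdx group (n = 3) were undosed mdx mice, and the naive wt group (n = 3) were undosed C57BL/10J mice. Mice were bought at 7 to 8 weeks of age, and the dosed groups and both naive groups performed the functional tests. Plasma of all 4 groups was taken at the same time point, after the 15 weeks of treatment. The strain label reads C57BL/10J for every sample, so genotypes were taken from the titles and the study's methods. Because wt and mdx mice came from different substrains, the dystrophin mutation and the substrain cannot be told apart.

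The miR-200 family is known for holding cells in an epithelial state by repressing Zeb1 and Zeb2, transcription factors that silence E-cadherin. miR-203 is a miRNA of the skin that restrains the progenitor factor p63 as keratinocytes stratify, and miR-205 is abundant in stratified epithelia and also acts on the Zeb factors. None of them is a defining miRNA of blood cells, liver or skeletal muscle. In plasma, fewer cells releasing a miRNA and less RNA released per cell cannot be told apart.

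The mature sequences are shown because the family divides by its seed, the bases from position 2 to position 8 that pair with a target, printed in capitals. The sequences are from RefSeq and positions are on GRCm38.p6. All 7 matched a mature sequence there.
mmu-miR-200b-3p: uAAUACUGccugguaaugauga
mmu-miR-200c-3p: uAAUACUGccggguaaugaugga
mmu-miR-429-3p: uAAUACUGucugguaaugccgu
mmu-miR-200a-3p: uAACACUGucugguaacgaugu
mmu-miR-141-3p: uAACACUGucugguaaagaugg
mmu-miR-203-3p: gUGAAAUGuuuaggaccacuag
mmu-miR-205-5p: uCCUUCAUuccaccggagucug

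miR-200b-3p, miR-200c-3p and miR-429-3p shared the seed AAUACUG, while miR-200a-3p and miR-141-3p shared AACACUG. The seeds of miR-203-3p (UGAAAUG) and miR-205-5p (CCUUCAU) were each found in 1 sequence, and none of the 4 was the seed of any other of the 1679 mature mouse sequences searched. Counting from 1 at the 5′ end, miR-200a-3p and miR-141-3p differed at 2 of 22 positions (C17A and U22G, the base of miR-200a-3p first). miR-200b-3p and miR-200c-3p differed at 2 of the 22 positions compared (U11G and A22G, the base of miR-200b-3p first). Reads of miRNA length were mapped without a mismatch, and miR-200a-3p and miR-141-3p share their first 16 bases.

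The family lies in 2 clusters on the minus strand. The first cluster is on chromosome 4, with miR-200b-3p at chr4:156055685-156055706, miR-200a-3p at chr4:156054911-156054932 and miR-429-3p at chr4:156053916-156053937. Its hairpins are 695 and 908 bases apart and lie inside the protein-coding gene Ttll10, outside its exons in the GENCODE annotation, and in the processed transcript Gm13648, with the hairpin of miR-429 in an exon of Gm13648. In the second cluster, on chromosome 6, miR-200c-3p is at chr6:124718324-124718346 and miR-141-3p at chr6:124717917-124717938, with 336 bases between the hairpins, both within the antisense gene Gm15884. miR-203-3p, at chr12:112130927-112130948 on the plus strand, overlaps no other annotated gene. miR-205-5p, at chr1:193507503-193507524 on the minus strand, lies in an exon of the long non-coding RNA 4631405K08Rik. Each cluster thus holds both seeds of the family.

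Total counts per library were 1167161 to 2899315, so that 3 counts, the limit a count of 0 allows, amount to 1.03 to 2.57 CPM (counts scaled to the size of the library). One liver miRNA took an unequal part of the libraries: miR-122-5p held 2.96% to 6.19% of the counts in Givinostat mice, 2.98% to 16.1% in vehicle mice, 1.37% to 10.6% in naive mdx mice and 37.6% to 64.6% in naive wt mice. Levels are therefore given as CPM scaled by TMM, a method that sets each library's scale from the bulk of its miRNAs. The titles give an animal number for each library, taken here as separate mice, and no molecular identifiers are described for the reads, so floors cover counting error only.

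The 7 miRNAs were moderately abundant in plasma. Ranked by mean level over the 13 libraries, miR-205-5p (2148 CPM) came first and stood 54th among the tested miRNAs, followed by miR-200b-3p (1663 CPM), miR-203-3p (1519 CPM), miR-200a-3p (1014 CPM), miR-200c-3p (904 CPM), miR-429-3p (424 CPM) and, 227th, miR-141-3p (28.5 CPM). miR-205-5p was the highest of the 7 in 7 libraries and miR-200b-3p in the other 6. miR-429-3p was 6th and miR-141-3p last in all 13, whereas neighbours among the first 5 changed places between mice. miR-141-3p rested on 15 to 140 counts per library, against 399 or more for each of the other 6, and was the least precisely measured. Levels of different miRNAs also carry unequal ligation and amplification, so their order describes these libraries.

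Summed over the 7 miRNAs, the level was 5650 to 6802 CPM in Givinostat mice, 4084 to 6035 CPM in vehicle mice, 5401 to 6648 CPM in naive mdx mice and 11421 to 16307 CPM in naive wt mice. The 3 mdx groups overlapped one another and every naive wt mouse lay above all 10 mdx mice. How many of all tested miRNAs separate these mice in the same way was not counted. With plain library totals the sums were 4941 to 6791 CPM in Givinostat mice, 3485 to 6393 CPM in vehicle mice, 5980 to 7865 CPM in naive mdx mice and 8373 to 19990 CPM in naive wt mice, and the naive wt mice again lay above all mdx mice.

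**Figure D1:**
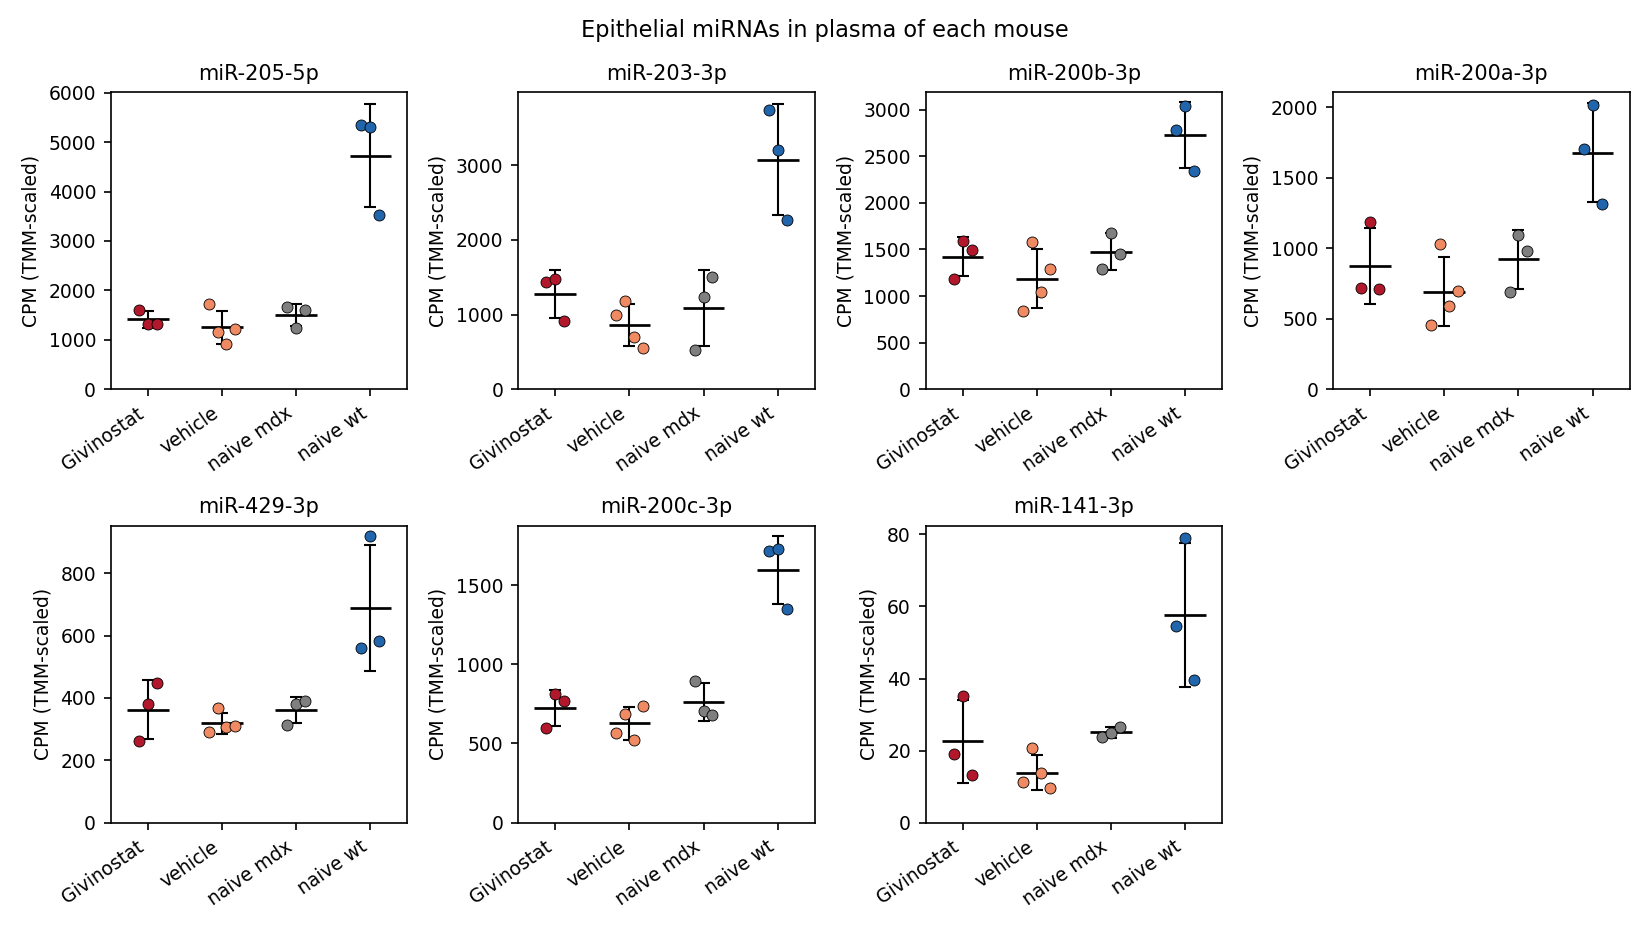
Level of each of the 7 miRNAs (y axis, TMM-scaled CPM, starting at 0) in each mouse (points) of the Givinostat, vehicle, naive mdx and naive wt groups (x axis). Horizontal lines are group means and bars 1 SD (n = 3, 4, 3 and 3). In all 7 panels the 3 naive wt mice lie above the 10 mdx mice. Of all tested miRNAs, 27.7% were lower than naive wt without overlap in naive mdx, 25.0% in vehicle and 25.3% in Givinostat mice. The share over the 3 mdx groups together was not counted.

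The first comparison asked what differs in plasma with the mdx genotype when no mouse was dosed. All 7 miRNAs were lower in naive mdx mice, by 1.82-fold for miR-200a-3p to 3.15-fold for miR-205-5p (edgeR quasi-likelihood test, Benjamini-Hochberg adjusted p under 0.05 over 368 miRNAs). For comparison, 16.6% of all tested miRNAs passed in this direction. The median log2 fold change of the 7 was -1.07, against 0.04 over all tested miRNAs.

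The skin and stratified-epithelium miRNAs had the lowest fold changes of the 7. miR-205-5p had 1662, 1238 and 1604 CPM in naive mdx mice 36, 37 and 39, against 5345, 5316 and 3520 CPM in naive wt mice 86, 89 and 95. The lowest naive wt mouse was thus well above the highest naive mdx mouse. Its means were 1501 ± 230 CPM in naive mdx and 4727 ± 1045 CPM in naive wt mice (SD, n = 3 each). On the log2 scale miR-205-5p differed by -1.65 (SE 0.26, edgeR adjusted p = 0.00012). miR-203-3p had 522, 1235 and 1510 CPM in the naive mdx mice, against 3745, 3205 and 2271 CPM in the naive wt mice. Mouse 36 was low even among naive mdx mice, and the groups did not overlap. The log2 fold change of miR-203-3p was -1.50 (SE 0.37, edgeR adjusted p = 0.00413).

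Within the AAUACUG seed group, fold changes lay close together. miR-200b-3p, the most abundant of the family, had 1294, 1681 and 1456 CPM in naive mdx mice 36, 37 and 39, against 2785, 3045 and 2347 CPM in naive wt mice 86, 89 and 95. miR-200c-3p, from the other cluster, had 896, 705 and 682 CPM in the naive mdx mice, against 1715, 1726 and 1347 CPM in the naive wt mice. Neither miRNA had a naive mdx mouse within the naive wt range. Log2 fold changes were -0.88 for miR-200b-3p (SE 0.25, edgeR adjusted p = 0.00955) and -1.07 for miR-200c-3p (SE 0.23, edgeR adjusted p = 0.00161). The third carrier of this seed, miR-429-3p, had 312, 380 and 389 CPM in the naive mdx mice, against 560, 921 and 583 CPM in the naive wt mice. Mouse 89 stood above the other naive wt mice for miR-429-3p, whose log2 fold change was -0.93 (SE 0.26, edgeR adjusted p = 0.00866).

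The AACACUG seed group pairs an abundant miRNA of chromosome 4 with the scarcest of the family, from chromosome 6. miR-200a-3p had 690, 1091 and 982 CPM in naive mdx mice 36, 37 and 39, against 1705, 2016 and 1313 CPM in naive wt mice 86, 89 and 95. Its gap between the groups was narrow, and its log2 fold change of -0.87 (SE 0.31, edgeR adjusted p = 0.0338) was the nearest of the 7 to the threshold. miR-141-3p had 23.8, 24.8 and 26.6 CPM in the naive mdx mice, against 54.5, 79.0 and 39.5 CPM in the naive wt mice. The naive mdx mice lay within 3 CPM of one another while the naive wt mice were spread, and the log2 fold change was -1.20 (SE 0.38, edgeR adjusted p = 0.0169).

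In TMM-scaled CPM the naive mdx and naive wt mice did not overlap for any of the 7, and 27.7% of all tested miRNAs were lower without overlap. With plain library totals only miR-205-5p kept the groups apart (7.07% of all tested miRNAs were lower without overlap on that scale), and only miR-203-3p and miR-205-5p passed the test, beside 6.25% of all tested miRNAs. Library totals moved the median of all miRNAs to a log2 fold change of 0.43. Without naive wt mouse 89, which was the highest of all 13 mice for 5 of the 7, 4 of the 7 passed, beside 10.5% of all tested miRNAs, and miR-200a-3p, miR-141-3p and miR-429-3p did not. miR-200a-3p also failed without naive mdx mouse 36, vehicle mouse 43 or naive wt mouse 86, each left out alone.

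**Figure D2:**
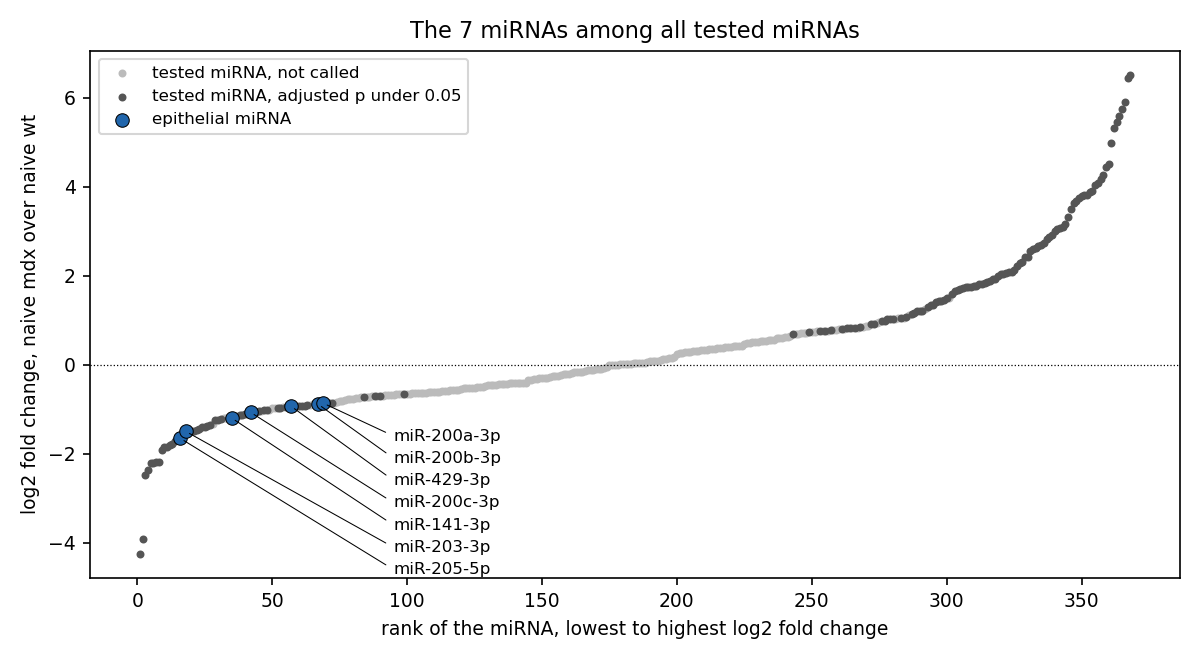
Log2 fold change of naive mdx over naive wt (y axis) for the 368 tested miRNAs, ordered from lowest to highest (x axis, rank), with miRNAs past an adjusted p of 0.05 in dark grey and the 7 epithelial miRNAs in blue. The 7 lie between the 16th (miR-205-5p) and the 69th (miR-200a-3p) lowest value.

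**Figure D3:**
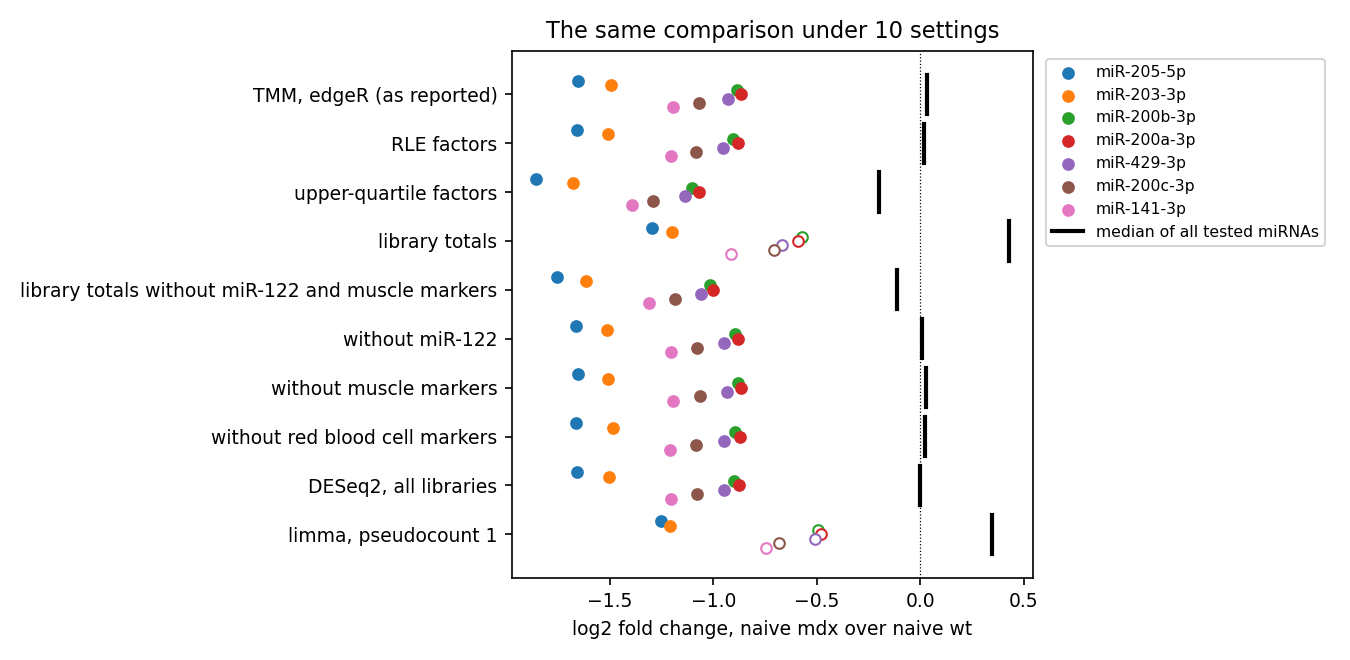
Log2 fold change of naive mdx over naive wt (x axis) of each of the 7 miRNAs under 10 settings of scaling, test or miRNAs left out (y axis), filled where the adjusted p was under 0.05, with a black bar at the median of all tested miRNAs; limma used values scaled to library totals. All 7 lie below 0 and left of the median in each setting shown, and 2 are filled with library totals and with limma.

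Vehicle and Givinostat mice were also set against the naive wt mice, the same 3 animals as above, so these comparisons share them. Genotype and dosing differ together in both. In vehicle mice all 7 were lower, with a median log2 fold change of -1.35, and 23.1% of all tested miRNAs passed in that direction (edgeR, Benjamini-Hochberg). In Givinostat mice all 7 were lower as well, with a median of -1.14, beside 11.7% of all tested miRNAs. In TMM-scaled CPM none of the 7 overlapped in either comparison, while 25.0% of all tested miRNAs were lower without overlap in vehicle mice and 25.3% in Givinostat mice. With library totals 4 of the 7 were lower without overlap in Givinostat mice (8.97% of all tested miRNAs) and 6 in vehicle mice (10.9%).

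Given side by side, the log2 fold change of miR-205-5p, the miRNA of stratified epithelia, was -1.74 in Givinostat mice (SE 0.27), -1.92 in vehicle mice (SE 0.24) and -1.65 in naive mdx mice (SE 0.26), each over naive wt. For the skin miRNA miR-203-3p it was -1.27 in Givinostat mice (SE 0.37), -1.84 in vehicle mice (SE 0.34) and -1.50 in naive mdx mice (SE 0.37). For miR-141-3p it was -1.35 in Givinostat mice (SE 0.38), -2.06 in vehicle mice (SE 0.36) and -1.20 in naive mdx mice (SE 0.38). The other 4, all of the miR-200 family, ranged over naive wt from -1.14 to -0.92 in Givinostat mice, from -1.35 to -1.11 in vehicle mice and from -1.07 to -0.87 in naive mdx mice. With library totals 4 of the 7 passed in Givinostat mice (4.89% of all tested miRNAs) and 7 in vehicle mice (44 of the 368 tested miRNAs). In Givinostat mice 4 passed without Givinostat mouse 35 (6.41% of all tested miRNAs) or without naive wt mouse 89 (6.28%), 5 without Givinostat mouse 31 (8.29%) and 6 without vehicle mouse 43 (10.5%).

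**Figure D4:**
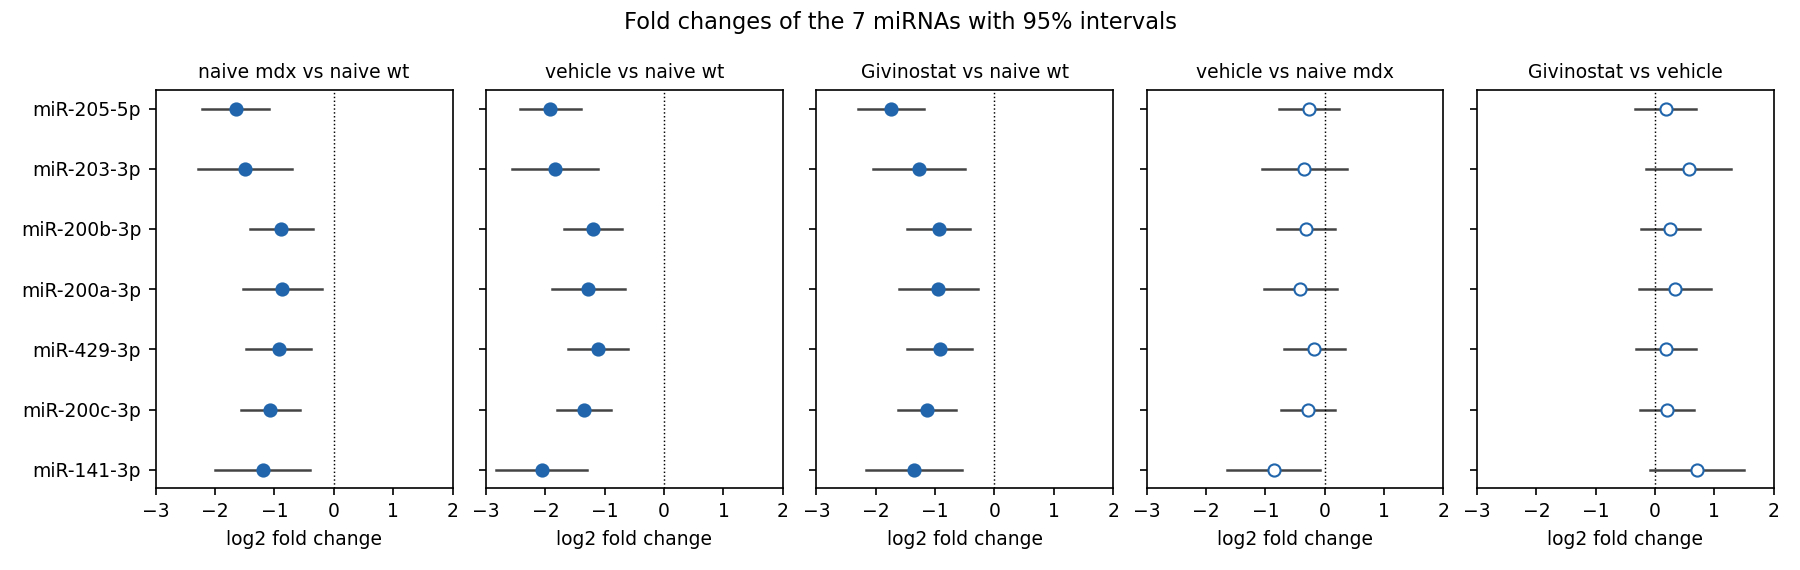
Log2 fold change (x axis) of the 7 miRNAs (y axis) in the 5 comparisons, the first group of each title over the second, with 95% intervals as lines and filled points where the edgeR adjusted p was under 0.05. All 7 points are filled in the 3 comparisons with naive wt and open in the comparisons of vehicle with naive mdx and of Givinostat with vehicle.

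Givinostat was compared with vehicle to ask what the drug changes in mdx plasma. None of the 7 passed (edgeR, Benjamini-Hochberg; 0 at an unadjusted p under 0.05, and 0 by DESeq2), where 0.272% of all tested miRNAs passed in either direction. All 7 log2 fold changes were above 0, from 0.18 to 0.71, and the groups overlapped for every one. Their median was 0.26, against -0.02 over all tested miRNAs. Of the 368 tested miRNAs, 12 (3.26%) were lower and 16 higher in Givinostat mice without overlap. At an unadjusted p under 0.05 (edgeR), 15 of the 368 were higher and 10 lower. miR-141-3p had 19.1, 35.2 and 13.2 CPM in Givinostat mice 31, 34 and 35, against 11.2, 20.6, 13.8 and 9.61 CPM in vehicle mice 40, 41, 42 and 43. One mouse in each group, 34 and 41, was well above the others. Its log2 fold change was 0.71 (95% interval -0.09 to 1.51, edgeR adjusted p = 0.710).

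miR-203-3p had 1438, 1477 and 908 CPM in Givinostat mice 31, 34 and 35, against 1000, 1186, 694 and 557 CPM in vehicle mice 40 to 43. The lowest Givinostat mouse lay inside the vehicle range, and the log2 fold change was 0.57 (95% interval -0.15 to 1.28, edgeR adjusted p = 0.710). miR-205-5p had 1607, 1327 and 1310 CPM in the Givinostat mice, against 1715, 1158, 916 and 1211 CPM in the vehicle mice. Here the vehicle mice spanned the Givinostat mice on both sides. The log2 fold change of miR-205-5p was 0.18 (95% interval -0.33 to 0.69, edgeR adjusted p = 0.875).

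The remaining 4, all of the miR-200 family, overlapped between the groups as well. miR-200b-3p had 1183, 1588 and 1493 CPM in Givinostat mice 31, 34 and 35, against 838, 1582, 1044 and 1287 CPM in vehicle mice 40 to 43. miR-200a-3p had 718, 1185 and 714 CPM in the Givinostat mice, against 454, 1032, 589 and 695 CPM in the vehicle mice. In both, mice 34 and 41 were the highest of their groups, as they were for 5 of the 7 miRNAs each. miR-200c-3p had 595, 811 and 766 CPM in the Givinostat mice, against 563, 688, 519 and 738 CPM in the vehicle mice. miR-429-3p had 263, 379 and 447 CPM in the Givinostat mice, against 290, 368, 307 and 310 CPM in the vehicle mice. Givinostat mice lay at both ends of the miR-429-3p range, and without Givinostat mouse 35 its log2 fold change was -0.057 in place of 0.19.

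Vehicle was compared with naive mdx to show what dosing by gavage changes. None of the 7 passed, beside 0.0% of all tested miRNAs (edgeR, Benjamini-Hochberg; 1 of the 7 at an unadjusted p under 0.05, and 0 by DESeq2). All 7 log2 fold changes were below 0, with a median of -0.31 against -0.13 over all tested miRNAs. The 1 miRNA was miR-141-3p, at 9.61 to 20.6 CPM in vehicle mice and 23.8 to 26.6 CPM in naive mdx mice. These did not overlap, on 15 to 28 counts in vehicle and 35 to 49 counts in naive mdx libraries, and the log2 fold change was -0.86 (SE 0.37, edgeR adjusted p = 0.801). Vehicle and naive mdx mice overlapped for the other 6. Of the 368 tested miRNAs, 4 (1.09%) were lower and 4 higher in vehicle mice without overlap. At an unadjusted p under 0.05 (edgeR), 10 of the 368 were higher and 7 lower.

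Ratios of raw counts within a library do not depend on how libraries are scaled. The ratio of miR-205-5p to miR-200b-3p was 0.737 to 1.28 in naive mdx mice and 1.50 to 1.92 in naive wt mice, without overlap. It was 0.835 to 1.36 in Givinostat mice and 0.732 to 2.05 in vehicle mice, where mouse 40 (2.05) was above every naive wt mouse and the other 3 were below 1. Thus miR-205-5p outnumbered miR-200b-3p in all naive wt mice and in 4 of the 10 mdx mice. The ratio of miR-203-3p to miR-200b-3p was 0.404 to 1.04 in naive mdx mice and 0.968 to 1.34 in naive wt mice, which overlap.

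Ratios were also taken within the miR-200 family. miR-200a-3p to miR-200b-3p, neighbours on chromosome 4, had a ratio of 0.533 to 0.674 in naive mdx mice and 0.560 to 0.662 in naive wt mice. miR-429-3p to miR-200b-3p had 0.226 to 0.268 in naive mdx mice and 0.201 to 0.302 in naive wt mice. For both pairs the naive mdx and naive wt ranges overlapped. miR-200c-3p to miR-200b-3p overlapped too, with a wide spread in naive mdx mice (0.419 to 0.693) against 0.567 to 0.616 in naive wt mice. miR-141-3p to miR-200a-3p had 0.0227 to 0.0345 in naive mdx mice and 0.0301 to 0.0392 in naive wt mice, which overlap. It was below the naive wt range in Givinostat mice (0.0185 to 0.0297) and in vehicle mice (0.0138 to 0.0246). The chromosome 6 pair was uneven in level, miR-141-3p holding 0.0130 to 0.0458 of the count of miR-200c-3p over the 13 libraries, although both lie in 1 cluster.

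**Figure D5:**
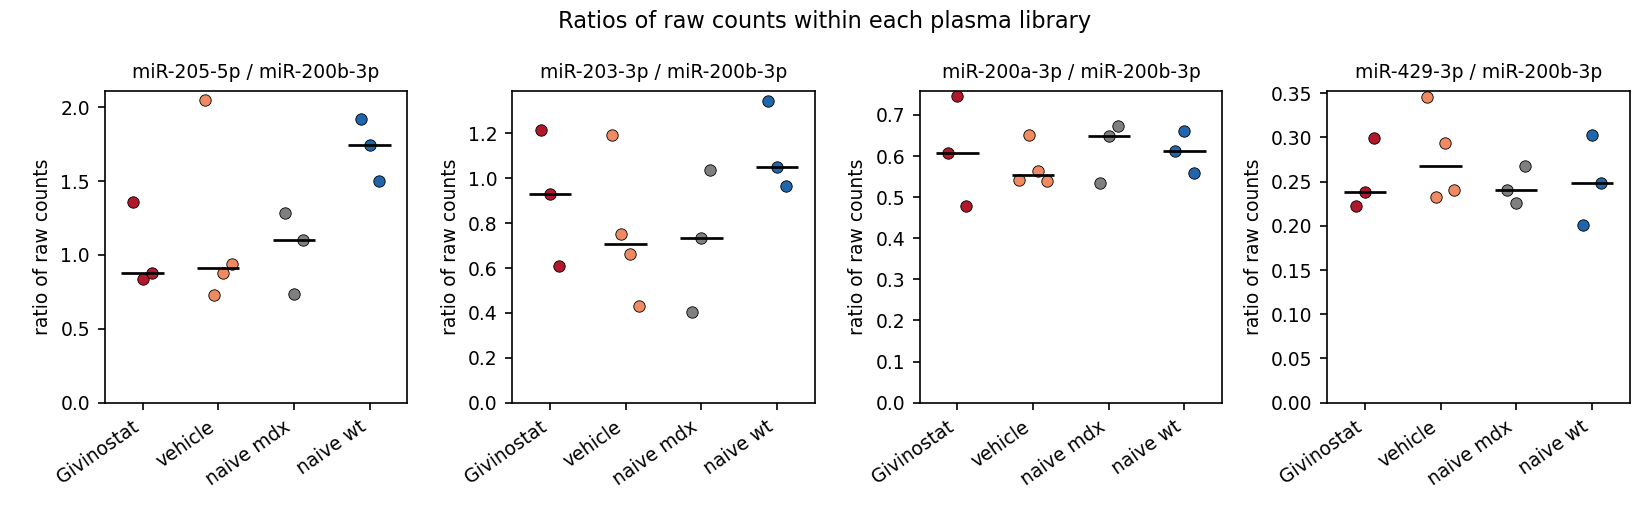
Ratio of raw counts (y axis, starting at 0) of miR-205-5p, miR-203-3p, miR-200a-3p and miR-429-3p to miR-200b-3p in each mouse (points) of the 4 groups (x axis), with group medians as lines. For miR-205-5p the naive mdx mice (0.737 to 1.28) lie below the naive wt mice (1.50 to 1.92), and for miR-203-3p, miR-200a-3p and miR-429-3p these groups overlap. How often ratios of other pairs of miRNAs separate these groups was not counted.

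Profiles over the 13 libraries were compared by the root mean square difference of log2(CPM + 1), each centred on its own mean. All 13 libraries and their scaling are common to the profiles, so the distances are a description. miR-200a-3p and miR-200b-3p were each other's nearest of all tested miRNAs (0.17), and miR-429-3p was nearest to miR-200b-3p (0.21). miR-200c-3p was nearest to miR-200b-5p (0.20), the other arm of the miR-200b hairpin, and then to miR-200b-3p (0.21). miR-141-3p was nearest to miR-200a-3p, at a larger distance (0.36). Outside the family, miR-203-3p was nearest to miR-434-5p (0.30) and miR-205-5p to let-7a-5p (0.31).

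The other arms of the same hairpins were scarcer. miR-200a-5p made up 2.89% and miR-200b-5p 3.37% of the counts of their hairpins over all libraries. miR-429-5p had 0 counts, miR-200c-5p 3, miR-203-5p 35, miR-141-5p 44 and miR-205-3p 63 counts over the 13 libraries, and none of these 5 passed the filter. miR-200b-5p had 43.1 to 52.0 CPM in naive mdx mice against 82.8 to 125 CPM in naive wt mice, and differed by -1.06 on the log2 scale (SE 0.29, edgeR adjusted p = 0.00802). With library totals the naive mdx and naive wt mice overlapped for miR-200b-5p. miR-200a-5p had 21.2 to 36.1 CPM in naive mdx mice against 35.3 to 55.7 CPM in naive wt mice, with a log2 fold change of -0.84 (SE 0.35, edgeR adjusted p = 0.0594).

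Other miRNAs listed by name as epithelial differed in both directions. Of 18 on a list of these, 14 were tested, and in naive mdx against naive wt mice 4 were lower and 2 higher (edgeR, Benjamini-Hochberg), beside 16.6% lower and 26.9% higher over all tested miRNAs. The median log2 fold change of the 14 was -0.38. The lower ones were miR-194-5p (-1.50) and miR-192-5p (-1.13), miRNAs of gut and liver, miR-183-5p (-1.09), of sensory epithelia, and miR-224-5p (-0.73). The higher ones were miR-149-5p (3.88) and miR-147-3p (1.33). Whether these 2 came from epithelia in these mice was not tested. In Givinostat against vehicle mice the lowest adjusted p of the 14 was that of miR-34c-5p, a miRNA of ciliated epithelia, with a log2 fold change of 2.19 (SE 0.48, edgeR adjusted p = 0.0522). The 4 below the count filter were miR-96-5p, miR-452-5p, miR-708-5p and miR-449a-5p. Of these miR-449a-5p, another miRNA of ciliated epithelia, had 2, 44 and 10 counts in Givinostat mice 31, 34 and 35, against 0 in every vehicle mouse.

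Markers of several other sources differed between the genotypes. Lower and higher mean an edgeR adjusted p under 0.05 in naive mdx against naive wt mice. Of all tested miRNAs, 16.6% were lower and 26.9% higher by this measure. Both arms of the hepatocyte miRNA miR-122 were lower, at a summed 10026 to 89250 CPM in naive mdx mice against 306475 to 881439 CPM in naive wt mice, and the 4 muscle miRNAs (miR-1a-3p, miR-133a-3p, miR-133b-3p and miR-206-3p) were higher, at 206487 to 420562 CPM in naive mdx mice against 9582 to 17470 CPM in naive wt mice. Of 5 red blood cell miRNAs 4 were lower and miR-486a-5p was higher, with sums of 4488 to 4780 CPM in naive mdx mice and 6643 to 7979 CPM in naive wt mice. Of 4 platelet and myeloid miRNAs miR-142a-3p was lower (sums 3718 to 4266 CPM in naive mdx mice and 5201 to 6367 CPM in naive wt mice). Of 2 endothelial miRNAs miR-126a-3p was lower (sums 3025 to 4453 CPM in naive mdx mice and 6739 to 10182 CPM in naive wt mice). miR-126a-5p (log2 fold change -0.89, edgeR adjusted p = 0.0546) and miR-142a-5p (-0.57, edgeR adjusted p = 0.0541) came close to the threshold without passing. With library totals, naive mdx and naive wt mice overlapped for miR-126a-3p, miR-142a-3p and miR-16-5p. The 2 lymphocyte miRNAs summed to 955 to 4775 CPM in naive mdx mice and 2685 to 3420 CPM in naive wt mice, which overlap. The dosed mdx mice had hepatocyte sums of 25431 to 70849 CPM with Givinostat and 27830 to 188593 CPM with vehicle, and muscle sums of 324603 to 533518 CPM with Givinostat and 318785 to 471297 CPM with vehicle. Red blood cell sums were 6175 to 7754 CPM in Givinostat mice and 4899 to 10764 CPM in vehicle mice. No marker on these lists was at 0 in all libraries. In turn, miR-122, the muscle markers and the red blood cell markers were taken out of the counts. In naive mdx against naive wt mice all 7 epithelial miRNAs then passed, beside 18.13%, 19.05% and 17.08% of all tested miRNAs, in that order. TMM already sets the scale from the bulk of the miRNAs, so taking out a few could change little. The part of the other sources in the epithelial result was not tested.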

How the data were processed

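The authors sequenced small RNA from plasma of 13 mice, mapped reads to GRCm38 (Bowtie 1.0.0 in the submitters' processing notes) and deposited raw counts per mature miRNA of miRBase release 21, each the sum of its isomiRs. Adapter trimming is credited to Trimmomatic in the methods and to cutadapt 1.4.2 in the notes. A second table deposited by the authors holds log2 values, each the log2 of a raw count shifted by a library-wide constant and missing at counts of 3 or fewer, and was used only in the limma alternatives, back on the linear scale with a pseudocount of 1 or 5. Mice were grouped by sample titles. Counts were filtered with filterByExpr (minimum count 10), scaled by TMM and fitted with 1 mean per group over all 13 libraries by the quasi-likelihood method of edgeR 4.0.16 (R 4.3.3, legacy = FALSE, tested on simulated data), with Benjamini-Hochberg adjustment over 368 miRNAs in each of 5 comparisons and calls at an adjusted p under 0.05. Intervals are at 95%. No pair of libraries within a group was a copy (15 pairs, chi-square per degree of freedom at least 104.5). Alternatives were other scalings and filters, DESeq2 1.42.0, limma 3.58.1, 2-group fits, robust and legacy fits, marker miRNAs taken out, and leaving out single libraries. The miRNAs named are the 7, the other arms of their hairpins and a list of other epithelial miRNAs; members, lists and tests were chosen with earlier results of these data known. The lists are described by counts and medians only.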

Additional observations from a re-analysis of the deposited data

How the results depend on the processing

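The limma alternatives used the deposited values, which are scaled to equal library totals, so they change scaling and test together. With naive mdx against naive wt, 2 of the 7 miRNAs passed the threshold with library totals, beside 6.25% of all tested miRNAs lower. With limma 2 passed at a pseudocount of 1 (5.16% of all) and of 5 (4.89%). The 2-group edgeR fit gave 6 (15.5% of all), without miR-200a-3p (edgeR adjusted p = 0.0564). Leaving out 1 library gave 4 to 7 (10.5% to 17.0% of all). Against naive wt, Givinostat mice had 4 with library totals (4.89% of all tested miRNAs lower) and 5 without a filter (2.74%). They had 1 with limma at a pseudocount of 1 (2.72%) and of 5 (2.99%), and 4 to 7 when 1 library was left out (6.28% to 16.75%). Vehicle against naive wt gave 7 when any library was left out (12.67% to 27.75% of all tested miRNAs lower). It gave 6 with limma at either pseudocount (10.6%) and 7 under the other alternatives (5.985% to 29.62%). Givinostat against vehicle and vehicle against naive mdx gave 0 of the 7 under every alternative run. The count over all tested miRNAs in Givinostat against vehicle was 1 in the main edgeR fit used here. It was 3 with upper-quartile factors, 2 with library totals, 6 without a filter and 0 with a mean of at least 10 CPM. It was 2 with DESeq2 (all libraries or 2 groups only), 2 with robust edgeR and 2 without miR-122. With limma it was 0, and it was 0 to 6 when 1 library was left out. Scaling by totals left after taking out miR-122 and the muscle markers, chosen after seeing the data, gave 2 there. In naive mdx against naive wt it gave 7 of the 7, beside 24.25% of all tested miRNAs lower. Calls over all miRNAs in naive mdx against naive wt were 99 higher and 61 lower with TMM, 118 and 23 with library totals, 82 and 96 with upper-quartile factors, and 115 and 19 with limma on the deposited values at a pseudocount of 1. Of 1015 single fold changes under the alternatives, 964 kept direction and side of the threshold, 50 kept direction but lost the call, and 1 reversed (miR-429-3p in Givinostat against vehicle, -0.057 without Givinostat mouse 35, the other libraries left out giving up to 0.36). The cause of these shifts was not tested. miR-203-3p and miR-205-5p passed in naive mdx against naive wt under all 29 alternatives. No paired analysis was possible because the groups share no animal numbers. Depth limits miR-141-3p most, at 15 to 140 counts per library.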
